A study of Mus musculus with 15 samples.

Results

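The distal end of mouse chromosome 4 carries the genes described here: those with a midpoint from 140 Mb onward in GRCm38 (GENCODE annotation) and a mean normalized count of at least 10 over 15 embryos, leaving out symbols beginning Rpl, Rps, Nduf, Uqc, Cox or Atp5. Of 497 genes of the table in the segment, 132 were at 0 in every library, 149 had a lower mean and 4 were left out by symbol, which left 212 genes of 16430 tested. Their midpoints ran from 140.14 to 156.24 Mb. The members were chosen by position and mean count, and the segment was selected on the difference in normalized counts between 2 knockout strains, so values of that contrast, and of each strain against wild-type, are given as descriptions without p-values. The counts of genes past the threshold in those contrasts come from the same fit and stand beside the counts over all genes. The mean of both strains against wild-type is the comparison reported with p-values.

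RNA was taken from single whole embryos at E7.5, embryonic and extraembryonic tissue together, matched by morphology. The first group had 6 Apela KO NEO-IN embryos, numbered 1 to 6, and the second had 6 Apela KO NEO-OUT embryos, numbered 7 to 12. Both groups were null for Apela, which encodes a secreted peptide ligand of the apelin receptor, and came from intercrosses of homozygous mutants. The reference was 3 wild-type (WT) embryos, and the labels give 1 mixed C57Bl6/CD-1 background for all groups. The alleles behind the strain names, the litters and the number of founders are not given in the sources used here. In whole embryos, fewer cells of a type and less RNA per cell cannot be told apart.

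Near the middle of the segment, between Tnfrsf1b and Miip, lies a cluster of genes for KRAB zinc finger proteins. Such proteins bind DNA through an array of C2H2 zinc fingers, and their KRAB domain recruits the corepressor TRIM28, which brings silencing chromatin to retrotransposons and other targets. The clusters arose by repeated local duplication, so neighbouring genes are close in sequence, and copy number and expression of such genes can vary between mouse strains.

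Promoters of 4 cluster genes with contrasting levels are shown to illustrate how alike neighbours are. Zfp979 and Zfp984 were high in NEO-IN and low in NEO-OUT embryos, while the ranges of Zfp985 and Zfp534 overlapped between the strains. Each sequence is the RefSeq promoter (GRCm38.p6, gene strand, 250 bases before and 50 after the annotated start), at chr4:147642459-147642758 (minus strand) for Zfp979, chr4:147809739-147810038 (minus strand) for Zfp984, chr4:147553027-147553326 (plus strand) for Zfp985 and chr4:147702582-147702881 (minus strand) for Zfp534. Capitals mark matches to CCAAT (here on the opposite strand, read as ATTGG) and GGGCGG.
Zfp979: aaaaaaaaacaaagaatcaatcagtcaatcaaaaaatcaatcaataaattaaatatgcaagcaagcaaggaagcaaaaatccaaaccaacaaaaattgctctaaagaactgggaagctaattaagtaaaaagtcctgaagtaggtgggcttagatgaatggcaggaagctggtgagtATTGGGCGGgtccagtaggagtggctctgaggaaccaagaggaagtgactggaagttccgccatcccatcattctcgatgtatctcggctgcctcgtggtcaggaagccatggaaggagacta
Zfp984: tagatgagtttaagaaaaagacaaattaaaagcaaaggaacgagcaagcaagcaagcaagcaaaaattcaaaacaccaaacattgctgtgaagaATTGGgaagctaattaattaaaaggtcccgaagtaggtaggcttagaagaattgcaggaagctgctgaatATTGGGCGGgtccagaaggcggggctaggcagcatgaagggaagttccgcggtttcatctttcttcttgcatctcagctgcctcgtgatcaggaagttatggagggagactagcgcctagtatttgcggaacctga
Zfp985: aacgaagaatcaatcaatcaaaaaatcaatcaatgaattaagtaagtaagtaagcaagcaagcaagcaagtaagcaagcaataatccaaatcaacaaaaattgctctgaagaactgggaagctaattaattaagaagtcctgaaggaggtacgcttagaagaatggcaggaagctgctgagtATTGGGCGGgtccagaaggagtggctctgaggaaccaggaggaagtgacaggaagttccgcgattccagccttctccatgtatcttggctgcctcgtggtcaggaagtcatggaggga
Zfp534: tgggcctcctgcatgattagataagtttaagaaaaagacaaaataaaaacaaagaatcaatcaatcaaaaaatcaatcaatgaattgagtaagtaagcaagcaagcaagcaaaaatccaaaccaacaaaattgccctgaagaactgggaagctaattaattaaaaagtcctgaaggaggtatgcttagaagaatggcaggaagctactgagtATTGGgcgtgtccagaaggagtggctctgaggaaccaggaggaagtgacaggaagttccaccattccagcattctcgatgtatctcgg
In the Zfp979, Zfp984 and Zfp985 promoters both motifs overlapped in 1 stretch, and Zfp534 had the CCAAT match alone. In alignments of the whole windows, identity was 82.3% for Zfp979 and Zfp985 and 68.9% for Zfp979 and Zfp984. The other pairs lay between 59.6% and 70.2%. The windows are set by the annotated starts, and the CCAAT match nearest the start lies at a different distance in each. The percentages therefore depend on where each window was placed as well as on sequence. They do not rank the pairs by likeness, and a link with the levels of the genes was not tested. Of 14 RefSeq promoters for 12 of the 19 cluster genes, CCAAT was found on either strand in 11, GGGCGG in 9 and TATAAA in 0, against 37.4%, 35.7% and 13.6% of all 32851 promoters. These are letter matches in a fixed window. The first transcribed bases after the RefSeq start of Zfp534 were not found in a GENCODE transcript of that gene.

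Libraries held 48.8 to 61.3 M recovered reads. Apela had 5.83 to 25.9 normalized counts in NEO-IN, 50.6 to 107 in NEO-OUT and 1082 to 2004 in WT embryos. All 10 markers of streak, epiblast, visceral endoderm and extraembryonic ectoderm were present in every library. Their summed level was 110983 to 133893 in NEO-IN, 121598 to 170226 in NEO-OUT and 118199 to 133582 in WT embryos. Of the 10, the strain ranges did not overlap at 1: Ttr, of visceral endoderm, had 24121 to 31528 in NEO-IN, 33279 to 46959 in NEO-OUT and 27684 to 32723 in WT embryos. Esrrb, of extraembryonic ectoderm, averaged 1499 ± 188 in NEO-IN, 2025 ± 199.7 in NEO-OUT (SD, n = 6 each) and 1585 ± 124 in WT embryos (SD, n = 3). The part of these tissue markers in the strain differences was not tested. The summed level of 8 maternal decidua and blood markers was 336 to 634 in NEO-IN, 367 to 710.2 in NEO-OUT and 432 to 524 in WT embryos. Of the decidual genes, Prl3c1 was at 0 in all libraries. Prl8a2 had 0 to 56.7 in NEO-IN, 1.87 to 49 in NEO-OUT and 0 to 1.98 in WT embryos. The sum of 4 Y-linked genes was 7619 to 8722 in NEO-IN embryos 1, 2 and 3 and NEO-OUT embryos 9 and 12, and at most 5.86 in all others, WT included. WT embryo 2 stood apart from WT embryos 1 and 3 at several cluster genes, so for some genes comparisons with WT are also given without it.

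Between the strains, 29 of the 212 genes (13.7%) had ranges that did not overlap, against 5.82% of all genes tested. Of these, 18 were higher in NEO-IN embryos, against 2.86% of all genes, and 11 were lower, against 2.96%. By limma's adjusted p, 52 (24.5%) passed in the contrast that chose the segment, against 13.3% of all genes. Of these, 37 were higher, against 6.74% of all genes, and 15 were lower, against 6.52%. These counts describe the choice and support nothing. The rest of chromosome 4 had 107 of 851 genes past the threshold (12.6%) and 52 without overlap (6.11%). Within the segment the share varied by position. In bins of 2 Mb from 140 Mb on it was 7 of 34 genes (20.6%), 0 of 11, 4 of 15 (26.7%), 14 of 27 (51.9%, from 146 to 148 Mb), 11 of 35 (31.4%), 2 of 14 (14.3%), 2 of 19 (10.5%), 12 of 47 (25.5%) and 0 of 10. In the bins with 0 by limma, 1 of 11 and 3 of 10 had an unadjusted p under 0.05, edgeR called 0 and 1, and DESeq2 called 0 and 1. In the 3 bins before the segment, from 134 Mb on, the share was 18.2%, 22.7% and 3.23%. WT values overlapped the range of NEO-IN alone at 8 of the 29 genes, of NEO-OUT alone at 11 and of both at 10, which is 27.6%, 37.9% and 34.5%. Over the 957 such genes of all tested, these shares were 40.5%, 21.3% and 32.9%, and at 5.22% WT overlapped neither. The counts use the range from the lowest to the highest WT embryo. At Zfp979, Zfp984 and Gm20707 that range met both strains because WT embryo 2 lay with NEO-OUT and WT embryos 1 and 3 with NEO-IN.

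**Figure D1:**
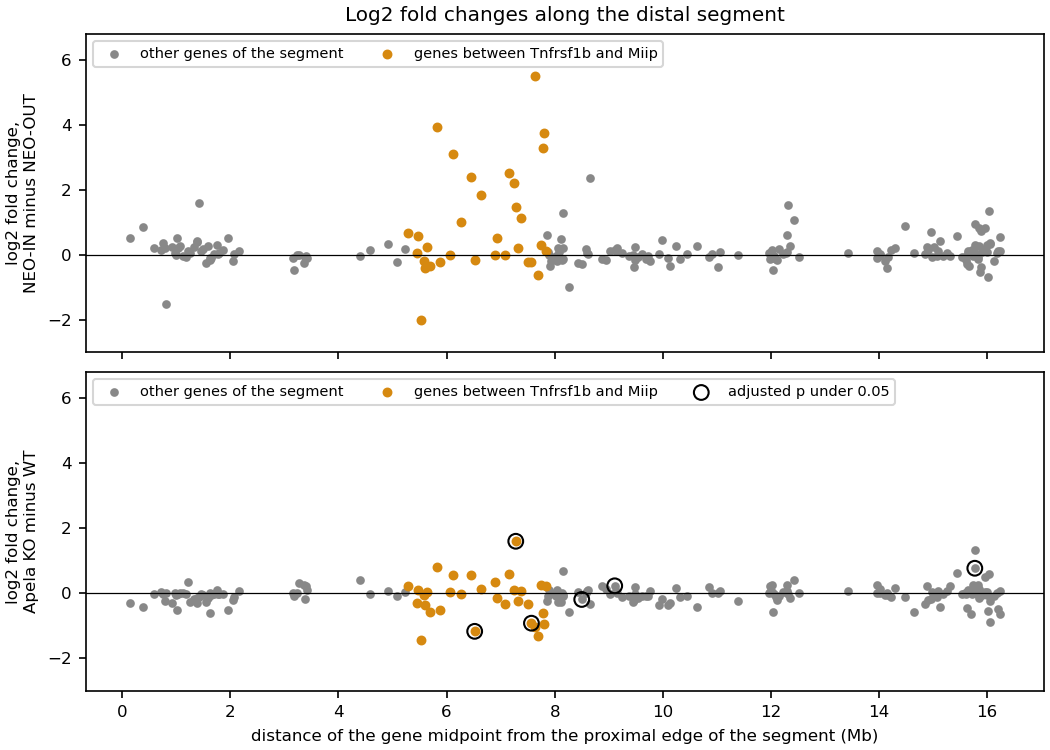
Each point is 1 of the 212 genes, placed by the distance of its midpoint from the proximal edge of the segment (Mb) and by its log2 fold change, NEO-IN minus NEO-OUT above and Apela KO minus WT below. Genes between Tnfrsf1b and Miip (orange) reach 5.49 in the upper panel, and rings in the lower panel mark the 6 genes with an adjusted p under 0.05.

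Zfp979, a KRAB zinc finger gene on the minus strand of chr4:147611937-147642513, showed the widest strain difference of the genes named here. NEO-IN embryos 1 to 6 had 465, 919.9, 362, 660.4, 1025 and 1375 normalized counts. NEO-OUT embryos 7 to 12 had 15.9, 13.4, 20.6, 9.59, 18.6 and 15.3. WT embryos 1 to 3 had 905, 13.9 and 833. WT embryos 1 and 3 were therefore inside the NEO-IN range and WT embryo 2 was inside the NEO-OUT range. The ratio of NEO-IN to NEO-OUT means was 51.5, and the log2 fold change was 5.49 ± 0.72 (SE).

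Zfp984, a KRAB gene distal to Zfp979 and also on the minus strand (chr4:147753974-147809788), divided the embryos in the same way. Its NEO-IN values were 503, 876, 389, 605, 1040.2 and 944. Its NEO-OUT values were 62.7, 98.7, 66.6, 65, 61.7 and 64.9, and its WT values were 631, 94 and 608. NEO-IN and NEO-OUT embryos did not overlap, and WT embryo 2 again sat with NEO-OUT embryos. Unlike Zfp979, the gene kept a clear signal in the low embryos, so the ratio of means was 10.4.

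Gm20707, annotated as a long intergenic RNA, begins beside Zfp984 on the same strand (chr4:147782319-147809840), and the spans of both genes overlap. It had 201, 304, 168, 222, 454 and 360.5 in NEO-IN, 27.2, 23.6, 4.9, 23.4, 30.4 and 20 in NEO-OUT, and 297, 26.7 and 331 in WT embryos. The same embryos were high and low as for Zfp984. Of the windows of 50 bases in its transcripts, 7.58% also occurred in Zfp984 transcripts. At Zfp979, Zfp984 and Gm20707 the highest 3 NEO-IN embryos were numbers 2, 5 and 6.

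The value of the comparison with WT depended on WT embryo 2 at these genes. For NEO-IN against WT, the log2 fold change of Zfp979 was 1.70 with all embryos and -0.26 without WT embryo 2. For NEO-OUT against WT it was -3.79 and -5.75. Without WT embryo 1 or 3 the same gene stood at 2.70 and 2.64 for NEO-IN, and at -2.79 and -2.85 for NEO-OUT. With all embryos and without WT embryo 2, Zfp984 stood at 1.04 and 0.14 for NEO-IN, and at -2.25 and -3.15 for NEO-OUT. Gm20707 stood at 0.94 and -0.22 for NEO-IN, and at -2.8 and -3.97 for NEO-OUT. The mean of both strains against WT was not called for Zfp979 (log2 fold change -1.05 ± 0.80, limma adjusted p = 0.514) or Zfp984 (-0.60 ± 0.41, adjusted p = 0.463). Without WT embryo 2 both were, at -3.01 (adjusted p = 0.000344) and -1.50 (adjusted p = 0.015). Without WT embryo 1 or 3 neither was (adjusted p = 0.989 and 0.973 for Zfp979, 0.918 and 0.908 for Zfp984). WT embryo 2 was singled out by its values at these genes, so the calls without it support nothing. The means over both strains also join a high strain with a low one.

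**Figure D2:**
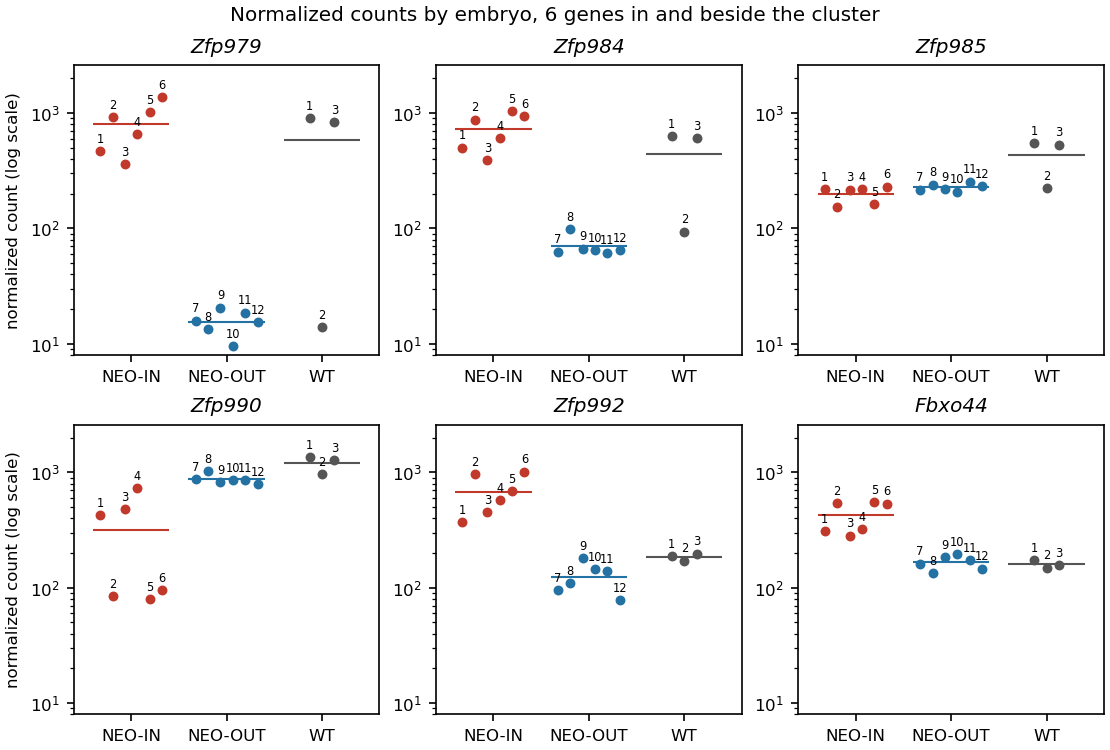
Normalized counts (log scale) of 6 genes in each embryo, with embryo numbers above the points and horizontal lines at group means. WT embryo 2 sits at the NEO-OUT level for Zfp979 (13.9) and Zfp984 (94), and NEO-IN embryos 2, 5 and 6 sit between 80 and 95.7 for Zfp990.

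Zfp985 and Zfp534 showed another pattern around WT embryo 2. Zfp985 (chr4:147553277-147585198, plus strand), a KRAB gene with 10 fingers, had 219, 154, 217, 219, 163 and 229.6 in NEO-IN and 217, 239.5, 220.3, 209, 255 and 233 in NEO-OUT embryos. WT embryos had 551, 224 and 532. Both strains lay with WT embryo 2, and WT embryos 1 and 3 were above every knockout embryo. The strains differed little, by -0.21 ± 0.18 on the log2 scale.

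Zfp534, also a KRAB gene, had 9.71 to 35.3 in NEO-IN, 28.1 to 33.3 in NEO-OUT and 90.4, 32.7 and 87.6 in WT embryos. WT embryo 2 was inside the range of the knockout embryos, as at Zfp985. Zfp981 had 12.6 to 35.3 in NEO-IN, 13.7 to 29.4 in NEO-OUT and 45.7, 45.5 and 47.5 in WT embryos, so that at this gene the 3 WT embryos lay together and above all 12 knockout embryos.

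Other zinc finger loci were high in NEO-IN embryos while WT embryos lay near NEO-OUT. Znf41-ps (chr4:145825237-145829942, plus strand), an unprocessed pseudogene, had 112, 375, 193, 175, 310.3 and 306 in NEO-IN, 21.5, 24.7, 14.7, 8.52, 4.9 and 21 in NEO-OUT, and 36.4, 22.8 and 40.1 in WT embryos. Its lowest NEO-IN embryo was above every WT embryo, and the ratio of NEO-IN to NEO-OUT means was 15.4. Zfp992 (chr4:146449023-146470292) had 371, 969, 453, 574, 683 and 1013 in NEO-IN, 94.6, 109, 180.1, 145, 139 and 78.3 in NEO-OUT, and 187, 172 and 197 in WT embryos. Zfp991 (chr4:147132038-147180579) had 199, 432, 237, 267, 421 and 504 in NEO-IN, 55.2, 49.3, 78.3, 58.6, 55.8 and 44.9 in NEO-OUT, and 98.7, 73.3 and 96.9 in WT embryos. At both genes every NEO-IN embryo was above every other embryo, with log2 fold changes against NEO-OUT of 2.40 ± 0.24 and 2.51 ± 0.21.

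Zfp993 (chr4:146610961-146658160) had 65, 268, 135, 121, 203 and 297 in NEO-IN, 39.2 to 50.4 in NEO-OUT, and 61.3, 76.2 and 98.7 in WT embryos. NEO-IN embryo 1 fell within the WT range here. Zfp987, close to the floor elsewhere, had 19.8 to 68.3 in NEO-IN, 0.954 to 12.7 in NEO-OUT and 5.2 to 10.9 in WT embryos. At Znf41-ps, Zfp992, Zfp991 and Zfp993 the highest 3 NEO-IN embryos were again numbers 2, 5 and 6, which was not so at Zfp987, where embryo 4 was highest.

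These loci share sequence. Of the windows of 50 bases in Znf41-ps, 82.8% were also present in Zfp991 transcripts, as were 81.9% of those in Zfp993 and 37.5% of those in Zfp992. The rules for reads that map to several places are not given in the sources used here, so how much of each value comes from a neighbour's reads was not tested. Their levels are uncertain as values of single genes.

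Zfp990 (chr4:145510759-145539188, plus strand), a KRAB gene with 13 fingers, ran the other way. NEO-IN embryos had 424, 84.5, 479.7, 725, 80 and 95.7. NEO-OUT embryos had 877, 1030.0, 825, 850.2, 851 and 786, and WT embryos had 1353, 959 and 1269.7. All 6 NEO-IN embryos were below all others, and within NEO-IN the embryos 2, 5 and 6 were far below 1, 3 and 4, with a highest to lowest ratio of 9.06. These are the same 3 embryos that were highest at Zfp979, Zfp984, Zfp991 and Zfp992. The division followed neither the Y-linked level, which was high in 1, 2 and 3, nor the order of the embryo numbers.

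Gm13212, a KRAB gene with 20 fingers next along the chromosome, had 173 to 301 in NEO-IN, 280.0 to 357 in NEO-OUT and 309 to 384 in WT embryos. Its log2 fold change between the strains was -0.41 ± 0.12, and the ranges overlapped.

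Some genes of the same cluster differed less. Zfp933, the most distal zinc finger gene of the cluster, had 524 to 638 in NEO-IN, 482 to 598 in NEO-OUT and 449 to 534 in WT embryos. Zfp982 had 219.6 to 361 in NEO-IN, 293 to 436 in NEO-OUT and 382 to 439.5 in WT embryos. Zfp988 had 61.5 to 123 in NEO-IN, 39.3 to 128 in NEO-OUT and 68.3 to 152 in WT embryos. The strain ranges overlapped at all 3 genes. Zfp978, at low counts, had 15.5 to 52.7 in NEO-IN, 8.59 to 17 in NEO-OUT and 12.5 to 24.2 in WT embryos. Its ratio of NEO-IN to NEO-OUT means was 2.43 (log2 fold change 1.14 ± 0.31), and the ranges overlapped at their edge. Zfp980, Zfp986 and Gm21411 were also low, with means over all embryos of 17.2, 26 and 11.4, and their strain ranges overlapped.

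**Figure D3:**
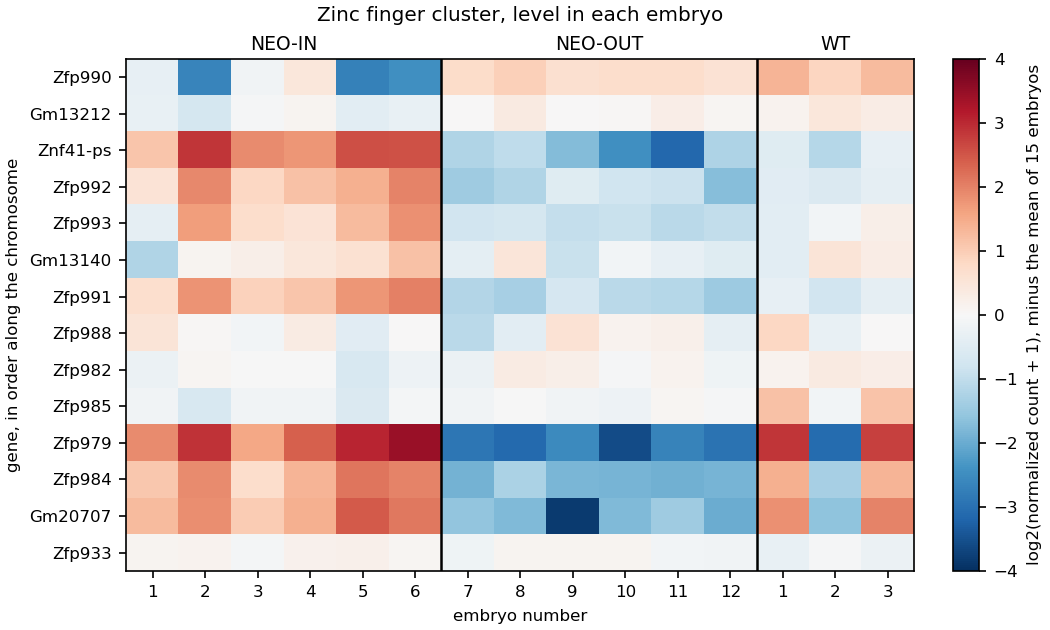
Colour gives log2(normalized count + 1) minus the mean of 15 embryos for genes between Tnfrsf1b and Miip with a mean of at least 50, 1 column per embryo, in chromosome order down the page. NEO-IN columns are red at Znf41-ps, Zfp992, Zfp991, Zfp979 and Zfp984, the WT embryo 2 column is blue at Zfp979, Zfp984 and Gm20707, and Zfp933 and Zfp982 are pale in all columns.

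In all, 8 of the 19 cluster genes (42.1%) had no overlap between the strains, against 5.82% of all genes tested. Of these, 7 were higher in NEO-IN embryos, against 2.86% of all genes, and 1 was lower, against 2.96%. The count takes in Znf41-ps, Zfp991, Zfp992 and Zfp993, which share sequence. It also takes in Zfp987, which reached the mean of at least 10 only through NEO-IN embryos (group means 37.6, 4.13 and 7.54 in NEO-IN, NEO-OUT and WT). The median log2 fold change was 0.13 over the 19 and 0.00 over all genes tested. The median size of the change was 0.61 in the cluster and 0.11 over all genes. Spread within groups was also wide: the median SD on the log2 scale was 0.57 in NEO-IN, 0.36 in NEO-OUT and 0.39 in WT embryos for the cluster, against 0.14, 0.14 and 0.11 for all genes.

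The proteins encoded by the cluster were read from GENCODE transcripts as the longest open frame. Of 18 coding cluster genes, 14 had at least 3 C2H2 fingers and 13 had a KRAB pattern, with a median of 11 fingers and at most 20. Among all 14482 tested coding genes these shares were 3.85% and 0.905%. Zfp986, Zfp993, Zfp978 and Gm21411 had 0 fingers in frames of at most 132 residues. For the coding cluster genes a median of 61.3% of transcript windows occurred in another gene, from 1.05% for Zfp933 to 89% for Zfp987, whereas the median for members outside the cluster was 0. Zfp979 shared 26.7%, Zfp990 29.1% and Zfp985 15.9%. Zfp984 shared 54.5%, of which most lay in Gm13212 (46.9% of its windows), Zfp981 shared 40%, Zfp534 68.4% and Zfp978 77.4%. Levels of genes with such shares are uncertain for the same reason as above.

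Distal to the cluster, Fbxo44 carried the widest strain difference among the genes listed for ubiquitin pathways. It encodes an F-box protein, the substrate receptor of a ubiquitin ligase, and lies at chr4:148152800-148160482 on the minus strand. It had 307, 538, 283, 323, 552 and 536 in NEO-IN, 162, 133, 183, 194, 174 and 146 in NEO-OUT, and 174, 149 and 156 in WT embryos. Every NEO-IN embryo was above every other embryo, embryos 2, 5 and 6 were the highest, and the ratio of NEO-IN to NEO-OUT means was 2.56. No window of its transcripts occurred in another gene.

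Miip, an inhibitor of cell migration at the distal edge of the cluster, had 999.7 to 1295 in NEO-IN, 649 to 824 in NEO-OUT and 995 to 1176 in WT embryos. Here NEO-OUT stood alone below the others. Gm572, a coding gene model, had 53 to 96.7 in NEO-IN, 2.13 to 51.9 in NEO-OUT and 33.7 to 45.7 in WT embryos. Disp3, of the Patched and Dispatched family, had 18.6 to 81.3 in NEO-IN, 76.4 to 121 in NEO-OUT and 85.1 to 109 in WT embryos, and the strain ranges overlapped.

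Plod1 and H6pd, also distal to the cluster, differed by less but with tight groups. Around Plod1, the strain ranges overlapped at Fv1, Mfn2, Clcn6 and Agtrap. Plod1, a collagen lysyl hydroxylase, had 2144 to 2621 in NEO-IN, 2669.9 to 3354 in NEO-OUT and 2503 to 2675 in WT embryos. H6pd, the hexose phosphate dehydrogenase of the endoplasmic reticulum, had 752 to 944 in NEO-IN, 522 to 720.0 in NEO-OUT and 759 to 861 in WT embryos. Neither gene had overlapping strain ranges.

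At the distal end another group of genes lies close together. Mxra8, a matrix-associated membrane protein, had 806, 819.9, 984, 785, 971 and 699 in NEO-IN, 496, 495, 411, 467, 505 and 472 in NEO-OUT, and 787, 522 and 810.4 in WT embryos. WT embryo 2 lay just above the NEO-OUT range and the other WT embryos lay within that of NEO-IN. Without WT embryo 2 the log2 fold change of NEO-IN against WT was 0.07, against 0.27 with it, and that of NEO-OUT was -0.75, against -0.55 with it.

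Pusl1, a pseudouridine synthase-like gene, had 1085 to 1555 in NEO-IN, 698 to 918 in NEO-OUT and 1103, 816 and 1235 in WT embryos. Its neighbour Ints11, the catalytic subunit of the Integrator complex, had 4598 to 5342 in NEO-IN, 6107 to 6891 in NEO-OUT and 5191 to 5836 in WT embryos. Cptp, which transfers ceramide-1-phosphate, had 1167 to 1733 in NEO-IN, 1967 to 2145 in NEO-OUT and 1603 to 1853 in WT embryos. NEO-IN embryos thus had more Pusl1 and less Ints11 and Cptp than NEO-OUT embryos, with log2 fold changes of 0.72 ± 0.11, -0.37 ± 0.04 and -0.54 ± 0.08. Pusl1 and Ints11 overlap on opposite strands, and whether counting used the strand is not given in the sources used here, so reads of both may not be separate.

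C1qtnf12, encoding a secreted C1q/TNF-related protein, had 345 to 588 in NEO-IN, 215 to 318 in NEO-OUT and 202 to 275 in WT embryos, with NEO-IN above all others. At the proximal end of the segment, Mfap2, a microfibril protein, had 588 to 889 in NEO-IN, 346 to 646 in NEO-OUT and 815 to 929 in WT embryos. Fblim1, a filamin-binding adaptor, had 3166 to 3786 in NEO-IN, 2488 to 3278 in NEO-OUT and 3321 to 3741 in WT embryos. The strain ranges overlapped at both proximal genes.

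Apela KO against WT, the comparison that did not choose the segment, called 6 of 212 genes (2.83%) by limma-trend with Benjamini-Hochberg adjustment over all genes, against 2.83% of all genes tested. Of these, 3 were higher, against 1.61% of all genes, and 3 were lower, against 1.22%. The ranges of knockout and WT embryos did not overlap at 8 genes (3.77%), against 3.39% of all genes, with 5 higher, against 1.69% of all genes, and 3 lower, against 1.70%. Both shares, of limma calls and of ranges without overlap, were near the background. The median log2 fold change was -0.01 over the segment and 0.00 over all genes. Without WT embryo 1 limma called 0 of the 212, against 0.931% of all genes, with 34 at an unadjusted p under 0.05. Without WT embryo 2 it called 5 (2.36%), against 0.974% of all genes, and without WT embryo 3 it called 1 (0.472%), against 1.22%. With all embryos edgeR called 8 (3.77%), against 2.97% of all genes, and DESeq2 called 18 (8.49%), against 5.48% of all genes.

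Zfp985 fell in Apela KO embryos, to 215 ± 28.9 (SD, n = 12), against 435 ± 184 in WT embryos (SD, n = 3), a log2 fold change of -0.92 ± 0.20 (limma adjusted p = 0.0213). It was lower than WT embryos 1 and 3 in 12 of 12 knockout embryos, and the call was lost without either of them (adjusted p = 0.166 and 0.162). Without WT embryo 2 the fall was -1.34 (adjusted p = 0.000104). Zfp981 fell to 21.2 ± 7.55 in Apela KO embryos, against 46.3 ± 1.09 in WT embryos, by -1.17 ± 0.31 (limma adjusted p = 0.049), lower in 12 of 12. That call held only in fits that left out NEO-IN embryo 3, NEO-IN embryo 4 or NEO-OUT embryo 10, and was lost in the other 12 of 15 that left out 1 embryo (adjusted p up to 0.176). Zfp534, at -1.30 ± 0.35, did not pass (limma adjusted p = 0.0554), but did without WT embryo 2 (-1.78, adjusted p = 0.0281). Without WT embryo 1 or 3 it did not pass (adjusted p = 0.259 and 0.266). WT embryo 2 was singled out by its values at cluster genes, so the fits without it are descriptions and support nothing.

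Gm13135, a processed pseudogene within the cluster window with 78.5% of its windows in other genes, rose to 15.9 ± 9.64 in Apela KO embryos, against 3.99 ± 2.04 in WT embryos (log2 fold change 1.60 ± 0.39, limma adjusted p = 0.0337). NEO-IN embryos had 13.9 to 31.3, NEO-OUT embryos 3.82 to 11.7 and WT embryos 1.86 to 5.94, so only NEO-IN embryos lay wholly above WT. Group means were 23.5, 8.21 and 3.99, so Gm13135 reached the mean of at least 10 only through NEO-IN embryos. Its call is therefore tied to the choice of genes and supports nothing. Dffa, the inhibitor of the apoptotic nuclease DFFB, rose to 3495 ± 255, against 2969 ± 134 in WT embryos (0.23 ± 0.05, limma adjusted p = 0.0147), higher in 12 of 12 knockout embryos. Vwa1, a matrix protein of basement membranes and cartilage, rose to 119 ± 25.9, against 68.1 ± 5.02 in WT embryos (0.77 ± 0.18, limma adjusted p = 0.0265), higher in 12 of 12. Mtor, the growth-controlling kinase, fell to 5795 ± 639, against 6586 ± 247 in WT embryos (-0.19 ± 0.05, limma adjusted p = 0.0479).

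At Mtor the strains were unlike: NEO-IN embryos had 4792 to 5873, NEO-OUT 6090.5 to 6530.2 and WT embryos 6314 to 6795. NEO-IN thus lay below all WT embryos while NEO-OUT overlapped them. Each of the calls for Gm13135 and Vwa1 was lost without any 1 of the WT embryos (adjusted p 0.0595 to 0.204 and 0.0925 to 0.141). That for Dffa was lost without WT embryo 1 or 2 (adjusted p = 0.0658 and 0.122), and that for Mtor in 12 of 15 fits that left out 1 embryo (adjusted p up to 0.217), all but those without NEO-IN embryo 1, NEO-IN embryo 2 or NEO-OUT embryo 9. Vwa1 and Zfp981 also lost their call with the Y-linked level in the model.

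**Figure D4:**
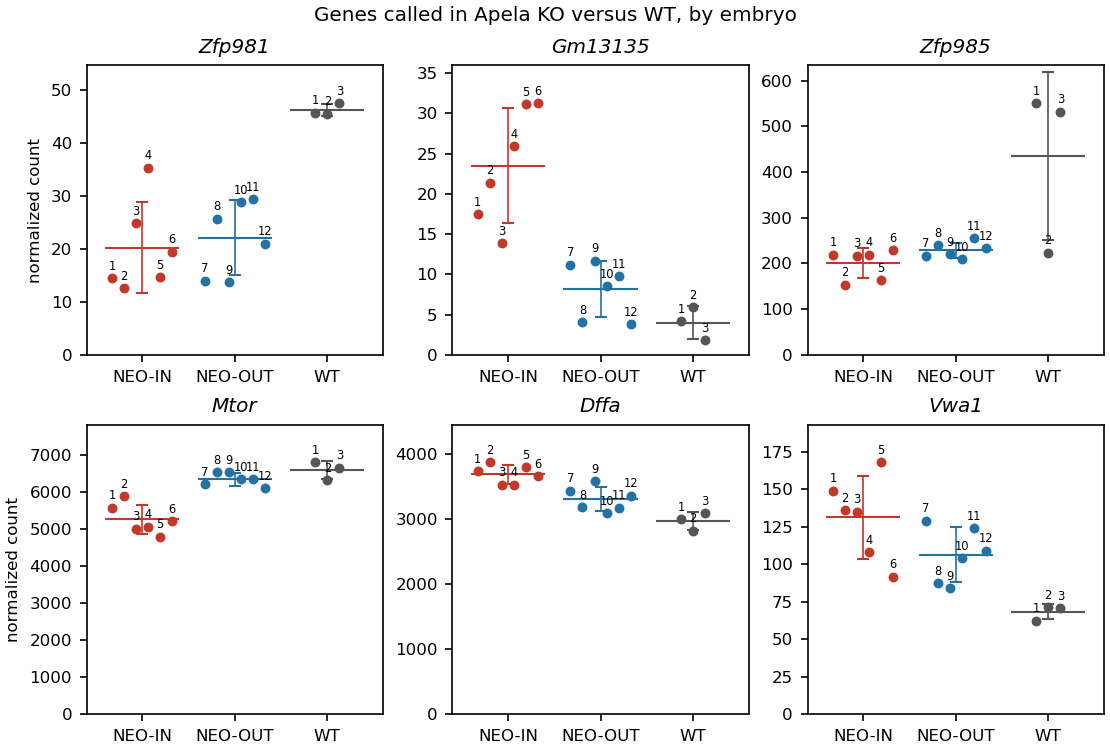
Normalized counts of the 6 genes called in Apela KO against WT, by embryo, with group means (lines) and SD (bars). At Dffa, Vwa1 and Zfp981 the 3 WT embryos lie outside the range of all 12 knockout embryos, whereas at Zfp985 WT embryo 2 (224) lies among them.

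By role, the same test called 2 of 19 cluster genes, both lower, and 1 of 17 signalling genes (Mtor, lower). It also called 1 of 7 genes for apoptosis and DNA repair (Dffa, higher). Over all genes tested it called 2.83%, with 1.61% higher and 1.22% lower. Lists this small with 1 or 2 calls give no result by role. The test called 0 of 61 genes in the lists for transcription, TNF receptors, metabolism, ubiquitin, heart and RNA processing. Of these 61, 8 had an unadjusted limma p under 0.05. There edgeR called 0, against 2.97% of all genes, and DESeq2 called 5, against 5.48% of all genes. Median log2 fold changes were -0.01 for 17 transcription regulators, 0.03 for 22 metabolic and mitochondrial genes and 0.06 for 8 genes of RNA processing, against 0.00 for all genes. Fbxo44 (0.69 ± 0.19, limma adjusted p = 0.0612), the chromatin reader Phf13 (0.23 ± 0.06, adjusted p = 0.06) and Icmt, which methylates prenylated proteins (0.25 ± 0.07, adjusted p = 0.0764), did not pass.

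Each strain against WT shares embryos with the contrast that chose the segment, and both share the WT embryos. NEO-IN against WT had 19 of 212 genes past the threshold (8.96%), against 2.98% of all genes, with 13 higher, against 1.53%, and 6 lower, against 1.44%. NEO-OUT against WT had 11 (5.19%), against 6.35% of all genes, with 2 higher, against 3.34%, and 9 lower, against 3.01%. In the cluster the counts were 8 of 19 for NEO-IN, 4 in each direction, and 3 of 19 for NEO-OUT, all lower. Side by side, the log2 fold changes against WT were 2.78 in NEO-IN and -1.15 in NEO-OUT for Znf41-ps, 1.85 and -0.65 for Zfp991, 1.77 and -0.63 for Zfp992, and -2.46 and -0.45 for Zfp990.

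At the edges of the choice, Igsf21 (140.14 Mb) and Gm13016 (140.38 Mb) were just inside, with means of 258 and 14.4 in NEO-IN, 178 and 6.42 in NEO-OUT, and 262 and 12.2 in WT embryos. Pax7 (139.79 Mb) and Klhdc7a (139.96 Mb) were just outside, with means of 83.8 and 445 in NEO-IN, 65.8 and 395 in NEO-OUT, and 85.2 and 402 in WT embryos. By mean count, Tas1r1 (10.12) and Gm13016 (10.79) were just inside, and Rex2 (9.98) and Gm13241 (9.39) were just outside. Gm13241, within the cluster, averaged 21.5 in NEO-IN, 0.63 in NEO-OUT and 2.61 in WT embryos.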

How the data were processed

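RNA of 15 single embryos was made into TruSeq Stranded mRNA libraries, per the labels' protocols. STAR, Picard, kallisto, featureCounts, DESeq2 and the build mm10 appear in the submitters' processing notes, with no version or role. What the authors deposited is a signal table: counts per gene after division by the library's size factor, here called normalized counts. Dividing by each library's step gave whole reads for 100% of values (within 0.01). Of recovered counts from 1 to 20, 76.9% to 79.1% were even, so reads may be counted in mates, with fewer fragments behind them. GENCODE M21 gave coordinates for 98.6% of 45232 identifiers. In 1 cell a stray letter was removed.

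The test in R 4.3.3 was limma-trend (version 3.58.1 of limma), which took log2(normalized count + 1) of 16430 genes with a mean of at least 10, in all 15 libraries and 3 groups. Fold changes are on that scale, which understates low genes. Apela KO was the mean of both strain effects. The threshold was a Benjamini-Hochberg adjusted p of 0.05. The fit was tested on simulated data. edgeR 4.0.16 and DESeq2 1.42.0 on recovered reads, other scalings, filters and left-out libraries were alternatives.

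The members, gene lists and the rule for naming genes were chosen with earlier results of these data known. The rule took cluster genes with a mean of at least 50, up to 10 per contrast past the threshold with that mean, a few per role list, the 5 widest within-strain ranges and the genes at the edges. Gm20707, Gm13135, Zfp987, Zfp534, Zfp980, Zfp986, Zfp978, Gm21411, Plod1, Pusl1 and Cptp fall outside it and were named after their values were seen. Gm20707 was moved out of the cluster list because GENCODE calls it a lincRNA. Nothing in the labels ties embryos to litters, so p-values measure the spread between these embryos. Counting depth limits low genes, and 3 WT embryos limit every comparison with WT.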

Additional observations from a re-analysis of the deposited data

Results flagged for a closer look

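Among 90 groups of 6 embryos looked at, 7 had 1 embryo far from the rest by Dixon's criterion, and chance alone flags about 1 in 20 groups. In NEO-OUT, embryo 9 was high for C1qtnf12 (318 normalized counts), Gm572 (51.9) and the ubiquitin ligase adaptor Klhl21 (3989.5). Embryo 8 was high for Zfp984 (98.7), embryo 7 for Igsf21 (239.7) and embryo 12 for Tnfrsf4 (32.5). In NEO-IN, embryo 3 was high for Hes3 (587).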

How the results depend on the processing

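The counts of genes past the threshold moved with the processing, mainly in comparisons that use the 3 WT embryos. Shares in brackets are of the 212 genes, then of all genes tested. For Apela KO against WT (6) DESeq2 called 18 (8.49%, 5.48%), array quality weights 17 (8.02%, 5.26%), no filter on low values 3 (1.42%, 1.30%) and runs of 3 consecutive embryo numbers as a random block 1 (0.472%, 1.14%), and leaving out 1 embryo gave 0 to 7. For NEO-IN against WT (19) DESeq2 gave 31 (14.6%, 5.65%), the Y-linked covariate 10 (4.72%, 1.89%), no filter 12 (5.66%, 1.42%) and the run block 11 (5.19%, 1.44%), and leaving out 1 embryo gave 8 to 23. For NEO-OUT against WT (11) DESeq2 gave 22 (10.4%, 9.91%), array weights 20 (9.43%, 9.82%) and the run block 6 (2.83%, 3.23%), and leaving out 1 embryo gave 2 to 14. For NEO-IN against NEO-OUT (52) leaving out 1 embryo gave 45 to 59. Over the fits that left out 1 embryo, the share of all genes called was 0.931% to 2.9% for Apela KO against WT. It was 1.25% to 3.64% for NEO-IN against WT, 2.33% to 7.5% for NEO-OUT against WT and 10.2% to 13.7% between the strains. Without WT embryo 1, 2 or 3 the counts for NEO-IN against WT were 8 (3.77%, 1.45%), 11 (5.19%, 1.25%) and 9 (4.25%, 1.36%). For NEO-OUT against WT they were 3 (1.42%, 2.33%), 9 (4.25%, 2.56%) and 2 (0.943%, 3.04%). Of the 6 genes called in Apela KO against WT, the run block kept Dffa alone. That block set the 3 WT embryos as 1 run, so every comparison with WT lay wholly between runs. The part of this coding in the lost calls was not tested. WT and NEO-IN titles share the numbers 1 to 3, and a replicate block on those 6 libraries gave 17 for NEO-IN against WT, as did the same libraries unpaired, a fit chosen after seeing the data. Deviations of same-numbered embryos correlated at 0.0452, 0.0155 and 0.00275, so the numbers were not taken as pairs. Of the values of named genes in Apela KO against WT, 1061 kept their side of the threshold, 44 lost it, 36 gained it and 0 turned direction. Only the 6 called genes had a call to lose, and all 44 losses fell on them. Most of the 1061 belong to genes that were not called in the main fit.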
